A study of Mus musculus with 24 samples.

Results

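RNA sequencing followed F123 cells, hybrid mouse embryonic stem (ES) cells with CTCF fused to an auxin-inducible degron (CTCF-AID), as they differentiated toward neural progenitors. Auxin was added in fresh medium daily. The comparison described here is day 4 against day 2 in cells kept in auxin, that is, in cells from which the tagged CTCF is removed. It rests on 4 of the 24 libraries of the series: 2 of day 4 with auxin and 2 of day 2 with auxin. The 2 libraries of day 4 without auxin and the 2 of day 2 without auxin, which carry the same degron, served as the reference step, and the 2 steps share no library. Members were taken by their labels and not by any measured value, though with earlier results of these data known. The labels do not say whether the 2 replicates of a group are separate cultures, so p-values measure only the spread between these samples, which may be technical. Cells that lack the degron but received auxin were not analysed here, so auxin itself and CTCF loss cannot be told apart. The sources used here do not say whether the degron line is a single clone.

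CTCF binds DNA through its zinc fingers and stops cohesin as it extrudes chromatin loops, and so sets which enhancers and promoters come close to each other. When ES cells leave pluripotency, the Pou5f1, Sox2 and Nanog network is shut down, signalling by retinoic acid, Wnt, FGF and hedgehog sets position along the body axis, and Hox genes mark that position. Neural progenitors then switch on SOX, PAX and POU-domain factors, and proneural basic helix-loop-helix factors such as the neurogenins commit cells to become neurons.

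The 4 auxin libraries held 51053184 to 66491850 counts, and the 8 libraries of both days 51053184 to 67118355. Values below are CPM, counts scaled to the size of each library, replicate 1 before replicate 2. Fold changes are log2, day 4 over day 2, with their standard error (SE), and a gene was called at an adjusted p below 0.05. The difference of the steps is the step with auxin minus the step without auxin. Day 2 auxin libraries stood apart. The standard deviation (SD) of the log2 ratio of replicate 2 over replicate 1 was 0.306 over 11712 genes, against 0.0928 to 0.11 in the day 4 auxin, day 6 auxin and control groups. This ratio followed gene length (the plot of replicate ratios by length), with a median of -0.335 in genes up to 2 kb and 0.322 in genes over 8 kb. Most of this trend lay in replicate 1. Its median log2 ratio over the day 2 control mean was 0.261 in genes up to 2 kb and -0.281 in genes over 8 kb. For replicate 2 these medians were -0.081 and 0.047. The median step followed length as well. It was -0.187 in genes up to 2 kb and 0.214 in genes over 8 kb with auxin, and -0.125 and 0.117 in the same length classes without auxin. The part of length in the results below was not tested beyond the values given beside them. The Ctcf gene itself had 287 and 278 CPM on day 4 with auxin against 214 and 279.9 CPM on day 2 with auxin, and its step was not called (0.21 ± 0.11, adjusted p = 0.15). Auxin removes the tagged protein and not its transcript, which leaves the depletion unchecked by these values.

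**Figure D1:**
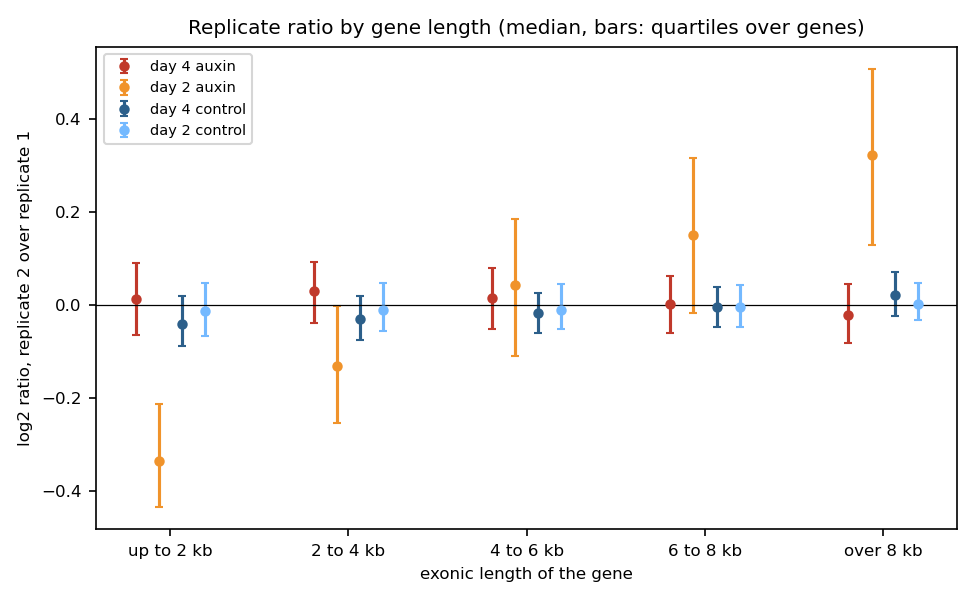
Log2 ratio of replicate 2 over replicate 1 against exonic gene length, for the 4 groups of days 4 and 2. Points are medians over genes and bars run between the quartiles. The day 2 auxin group climbs from -0.335 in genes up to 2 kb to 0.322 in genes over 8 kb, while the other 3 groups stay near 0.

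Most genes that moved between days 2 and 4 without auxin moved the same way with auxin. Of 21126 genes tested, 5135 (24.3%) were higher and 4770 (22.6%) lower on day 4 with auxin, 46.9% in all. Without auxin 5257 (24.9%) were higher and 5200 (24.6%) lower, 49.5% in all. These shares are the background for the list counts below. The like totals depended on a spread shared by all 8 libraries. Fits of only the 4 libraries of each step called 7476 genes with auxin and 13692 without auxin. A limma fit with a weight per library (chosen after seeing the data) called 7902 and 13815. A gene not called with auxin may therefore reflect the wider spread of the day 2 auxin libraries. Among the 5257 genes that rose without auxin, 3960 rose with auxin (75.3%; 77.1% of the genes that rose with auxin), 1238 were not called and 59 fell. Of the 5200 that fell without auxin, 3660 fell with auxin (70.4%; 76.7% of the genes that fell with auxin), 1492 were not called and 48 rose. Across genes the log2 fold changes of the steps had a Pearson correlation of 0.7865 over 21126 genes, given as a description, since genes are not independent replicates. With upper quartile scaling, which moved the median step with auxin to -0.1405 against -0.0164, 39.7% of the called genes were higher, against 51.8% in the fit used here. In bulk samples such as these, fewer cells of a type and less RNA per cell cannot be told apart.

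The size of the step differed for fewer genes. The difference of the steps was called for 1070 genes (5.06%), more positive with auxin for 522 (2.47%) and more negative for 548 (2.59%). Of the 548, 443 rose without auxin, and of these 255 rose, 129 were not called and 59 fell with auxin. Of the 522, 357 fell without auxin, and of these 185 fell, 126 were not called and 46 rose with auxin. The 1024 genes that rose at least 4-fold (log2 of 2) without auxin had a median step of 2.81 there, against which their median with auxin was 2.09. Chosen the other way, the 742 genes that rose as much with auxin had a median of 2.71 with auxin and 2.74 without auxin. The size of the gap therefore depends on which step chose the genes. The count of differences depended on the libraries: 4234 without replicate 1 of the day 2 auxin group, 6802 without its replicate 2, 314 to 393 without any 1 of the 6 other libraries, and 73 in a fit of all 24 libraries. The cause of that drop was not tested. Counts of differences in several of the gene lists are therefore given with their values in these fits. Their background is the 2.47% more positive and 2.59% more negative over all tested genes.

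**Figure D2:**
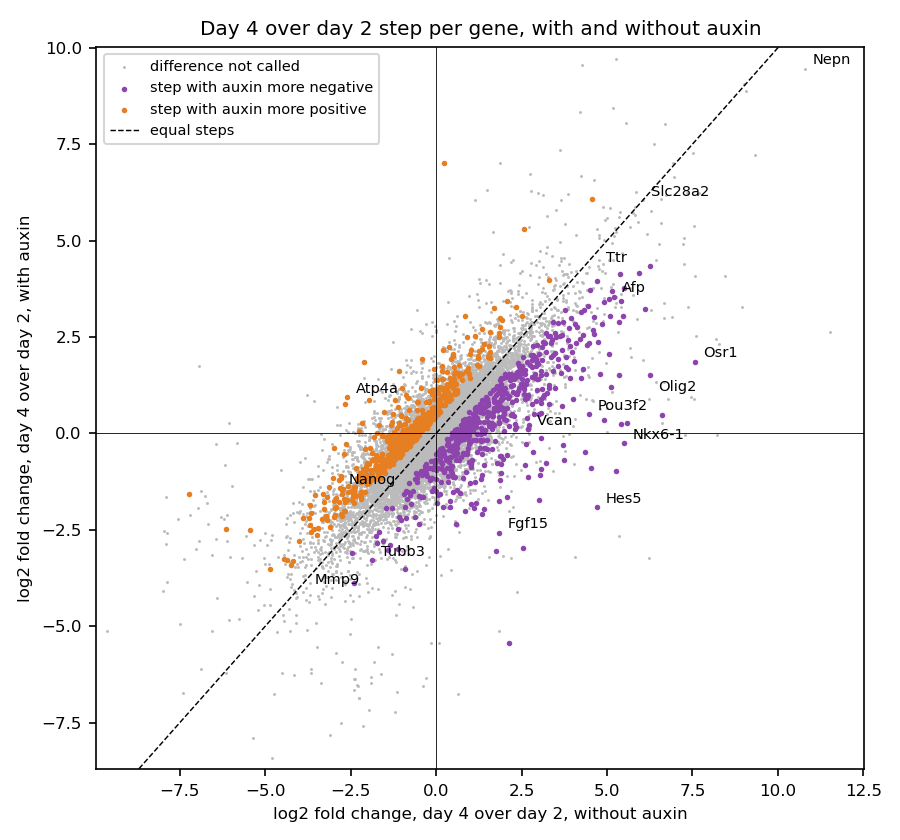
Log2 fold change of day 4 over day 2 with auxin (vertical) against the same without auxin (horizontal), 1 point per tested gene. Purple and orange points are the 548 and 522 genes whose difference of the steps was called, and the dashed line marks equal steps. Nkx6-1, Pou3f2 and Osr1 lie far right of the line, while Ttr, Slc28a2 and Mmp9 lie on or near it.

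Promoters of 3 of the named genes are shown as examples because CTCF can bind next to gene starts. Slc28a2 codes for a nucleoside transporter and made the same step with and without auxin. Nkx6-1 codes for a homeobox factor of the ventral neural tube and Vcan for the matrix proteoglycan versican, and neither had a called step with auxin while both rose without it. Each sequence is the 250 bases before the gene start in RefSeq, on GRCm38.p6 (mm10), 5' to 3' in the direction of transcription: chr2:122426185-122426434 on the plus strand for Slc28a2, chr5:101664712-101664961 on the minus strand for Nkx6-1 and chr13:89742513-89742762 on the minus strand for Vcan. Capitals mark a match to a core of the CTCF consensus, spelled CC, 3 bases of any kind, AG, 2 bases of any kind, then GGC, and searched on both strands. The gene coordinates given for single genes are those of GENCODE, whose starts of Slc28a2 and Nkx6-1 differ from the RefSeq ones, and the Nkx6-1 window lies inside the GENCODE gene.
Slc28a2: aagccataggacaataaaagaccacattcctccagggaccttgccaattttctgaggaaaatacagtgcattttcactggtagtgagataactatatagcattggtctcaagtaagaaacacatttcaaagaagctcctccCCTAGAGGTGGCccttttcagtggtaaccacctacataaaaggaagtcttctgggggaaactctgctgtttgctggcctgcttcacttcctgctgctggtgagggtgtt
Nkx6-1: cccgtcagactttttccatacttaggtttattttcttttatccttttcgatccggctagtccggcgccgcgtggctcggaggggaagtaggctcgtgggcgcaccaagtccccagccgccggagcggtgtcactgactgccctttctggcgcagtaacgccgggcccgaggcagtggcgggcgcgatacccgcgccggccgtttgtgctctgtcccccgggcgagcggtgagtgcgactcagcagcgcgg
Vcan: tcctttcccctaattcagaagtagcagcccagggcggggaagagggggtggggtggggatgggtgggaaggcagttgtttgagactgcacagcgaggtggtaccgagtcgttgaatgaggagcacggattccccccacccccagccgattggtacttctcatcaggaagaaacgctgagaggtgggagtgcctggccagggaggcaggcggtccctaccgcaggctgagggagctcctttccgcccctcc
The match in the Slc28a2 window lies on the same strand and starts 109 bases before the RefSeq start. The Nkx6-1 and Vcan windows hold no match, which says nothing about binding of CTCF there. Windows of Nepn, Adh1, Aldh1a1, Actc1, Fgb and Ugt2b34, which like Slc28a2 had no called difference of the steps, hold no match either. The Sox2 window, also of a gene without a called difference, holds 1. The 3 examples therefore show no pattern of matches. A match was present in 8.24% of 27025 genes of the promoter table and in 11.7% of the 13386 tested genes with a promoter. It was present in 12.8% of genes higher and 10.9% of genes lower on day 4 with auxin. Among genes that rose without auxin and had a more negative step with auxin it was present in 31 of 315 (9.84%), and among genes that fell without auxin and had a more positive step with auxin in 39 of 261 (14.9%).

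The 8 genes with the largest rises with auxin, of those whose log2 CPM averaged 1 or more, predicted genes and clone names left out, had no called difference of the steps. Nepn, which codes for the proteoglycan nephrocan, had 25.1 and 25.8 CPM on day 4 with auxin against 0.0751 and 0 CPM on day 2 with auxin, and 89.5 and 86.1 against 0.0341 and 0.0601 CPM without auxin. Its step with auxin was 9.46 ± 0.28, though the day 2 auxin libraries hold 4 and 0 counts and the size is therefore loosely set. On day 4 the auxin libraries lay below the controls. Slc28a2 (mm10 chromosome 2, 122426477 to 122461137, plus strand) had 8.24 and 7.69 CPM on day 4 with auxin against 0.0751 and 0.158 CPM on day 2 with auxin, a step of 6.04 ± 0.23, beside 6.04 ± 0.24 without auxin. Adh1 and Aldh1a1, enzymes that oxidize retinol and retinal, had steps of 5.78 ± 0.12 and 5.71 ± 0.12 with auxin, and 6.29 ± 0.14 and 5.75 ± 0.12 without auxin. Actc1, the cardiac muscle actin, reached 5.999 and 7.27 CPM with auxin against 0.0751 and 0.0949 CPM on day 2 with auxin (6.26 ± 0.27). Fgb, a fibrinogen chain, and Ugt2b34, a glucuronosyltransferase, stepped by 5.88 ± 0.27 and 5.87 ± 0.26. Gsdmc2, a gasdermin, had 4.92 and 4.93 CPM against 0.0375 and 0 CPM, and no fold is given because the day 2 auxin libraries hold 2 counts in all. Reads of Ugt2b34, Gsdmc2 and Actc1 may be shared with close relatives.

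Among the genes that fell most, Ndufa4l2, a mitochondrial protein induced by hypoxia, had 0.385 and 0.395 CPM on day 4 with auxin against 12.2 and 10.2 CPM on day 2 with auxin (-4.82 ± 0.21, adjusted p = 1.2e-07). Mmp9, a gelatinase, had 1.76 and 1.67 against 27 and 28.9 CPM with auxin (-4.01 ± 0.11) and 1.64 and 1.71 against 23.8 and 23.4 CPM without auxin (-3.81 ± 0.11). The libraries of day 4 lay far below those of day 2 in both conditions. Myo1g, Ubap1l, Mzb1, Car6 and Nupr1 fell by 3.81 to 4.19 with auxin, with no called difference of the steps. Nccrp1 fell by 3.89 with auxin and by 2.41 without auxin (difference -1.49 ± 0.33, adjusted p = 0.031). That difference lost its call in 6 of the 8 fits that leave out 1 library, and in the fit of all 24 libraries.

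Most naive pluripotency genes fell with auxin, and 9 of 18 had a more positive step than without it. Of the 18, 12 fell, 1 rose and 5 were not called with auxin, with a median of -0.50, against -0.02 over all tested genes. Without auxin 15 fell and 2 rose, with a median of -1.22. The difference of the steps was called for 10 of the 18, more positive with auxin for 9. That count of 9 was 13 and 14 without replicate 1 and without replicate 2 of the day 2 auxin group, 4 or 5 without any 1 of the 6 other libraries, and 2 in the fit of all 24 libraries. Nanog (mm10 chromosome 6, 122707489 to 122714633, plus strand) had 31.6 and 29.99 CPM on day 4 with auxin against 81.6 and 83.6 CPM on day 2 with auxin, and 18.9 and 19 against 133 and 133 CPM without auxin. Its steps were -1.41 ± 0.07 with auxin and -2.8 ± 0.08 without auxin (difference 1.39 ± 0.1, adjusted p = 1.5e-04). The auxin libraries thus began below the controls on day 2 and stood above them on day 4, with no overlap on either day. Esrrb, a nuclear receptor of the naive network, had 183 and 187 against 329 and 365 CPM with auxin and 78.1 and 79.4 against 409 and 397 CPM without auxin (difference 1.46 ± 0.11, adjusted p = 1.5e-04). Fgf4, the growth factor that ES cells make for themselves, fell by 1.77 with auxin and by 3.27 without auxin (difference 1.5 ± 0.16, adjusted p = 9.0e-04). Zfp42, also called Rex1, had 101 and 95.5 against 134 and 127 CPM with auxin and 64.7 and 64.1 against 119.6 and 117 CPM without auxin (difference 0.47 ± 0.1, adjusted p = 0.029). That difference was not called without any 1 of the 6 libraries other than day 2 auxin, with adjusted p up to 0.21.

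Core pluripotency genes, 18 in all, showed 13 that fell and 4 that rose with auxin (median -1.02), beside 15 that fell without auxin (median -1.21). The step was more positive with auxin for 5, a count that was 1 or 2 without any 1 of the 6 libraries other than day 2 auxin, 10 and 9 without replicate 1 and without replicate 2 of that group, and 1 in the fit of all 24 libraries. Pou5f1, which codes for OCT4, had 216 and 219 CPM on day 4 with auxin against 388 and 329 CPM on day 2 with auxin, and 142 and 138 against 403 and 378 CPM without auxin. Its difference of the steps was 0.76 ± 0.13 (adjusted p = 0.0088). That difference lost its call in each fit that left out 1 of the 6 libraries other than day 2 auxin. It was also not called in the edgeR fit of all 24 libraries (adjusted p = 0.31). Sox2, shared by ES cells and neural progenitors, fell by 1.32 with auxin and by 1.22 without auxin, and its difference was not called (-0.1 ± 0.11, adjusted p = 0.69). Lefty1, an inhibitor of nodal, had 18.8 and 18.8 against 192 and 158 CPM with auxin (-3.2 ± 0.1), and 12.9 and 12.9 against 143 and 143 CPM without auxin. Utf1, a chromatin protein of pluripotent cells, had a difference of 1.14 ± 0.19 (adjusted p = 0.0087, up to 0.069 with 1 library left out). Tdh, the threonine dehydrogenase that mouse ES cells use, rose with auxin, to 68.6 and 70.3 CPM against 22.2 and 18.8 CPM on day 2 with auxin (1.78 ± 0.1). The difference of the steps was not called for Tdh.

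Most formative and primed epiblast genes fell with auxin: 13 of 17 fell and 3 rose (median -1.44), against 12 that fell and 5 that rose without auxin (median -1.61). Otx2, a homeobox factor of the primed epiblast, had 2.09 and 1.73 against 10.04 and 10.2 CPM with auxin (-2.39 ± 0.18), and Fgf5, the classic epiblast marker, fell by 2.17. Neither had a called difference of the steps. Fgf15, an FGF of the early neural tube, fell with auxin to 0.183 and 0.152 CPM against 1.16 and 0.87 CPM on day 2, while without auxin it rose to 2.86 and 2.68 CPM against 0.75 and 0.796 CPM (difference -4.42 ± 0.37, adjusted p = 2.8e-04). Sox11, a SOX factor of neural precursors, rose in both conditions, by 1.55 ± 0.09 with auxin and 2.59 ± 0.09 without auxin (difference -1.04 ± 0.13, adjusted p = 0.0017).

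**Figure D3:**
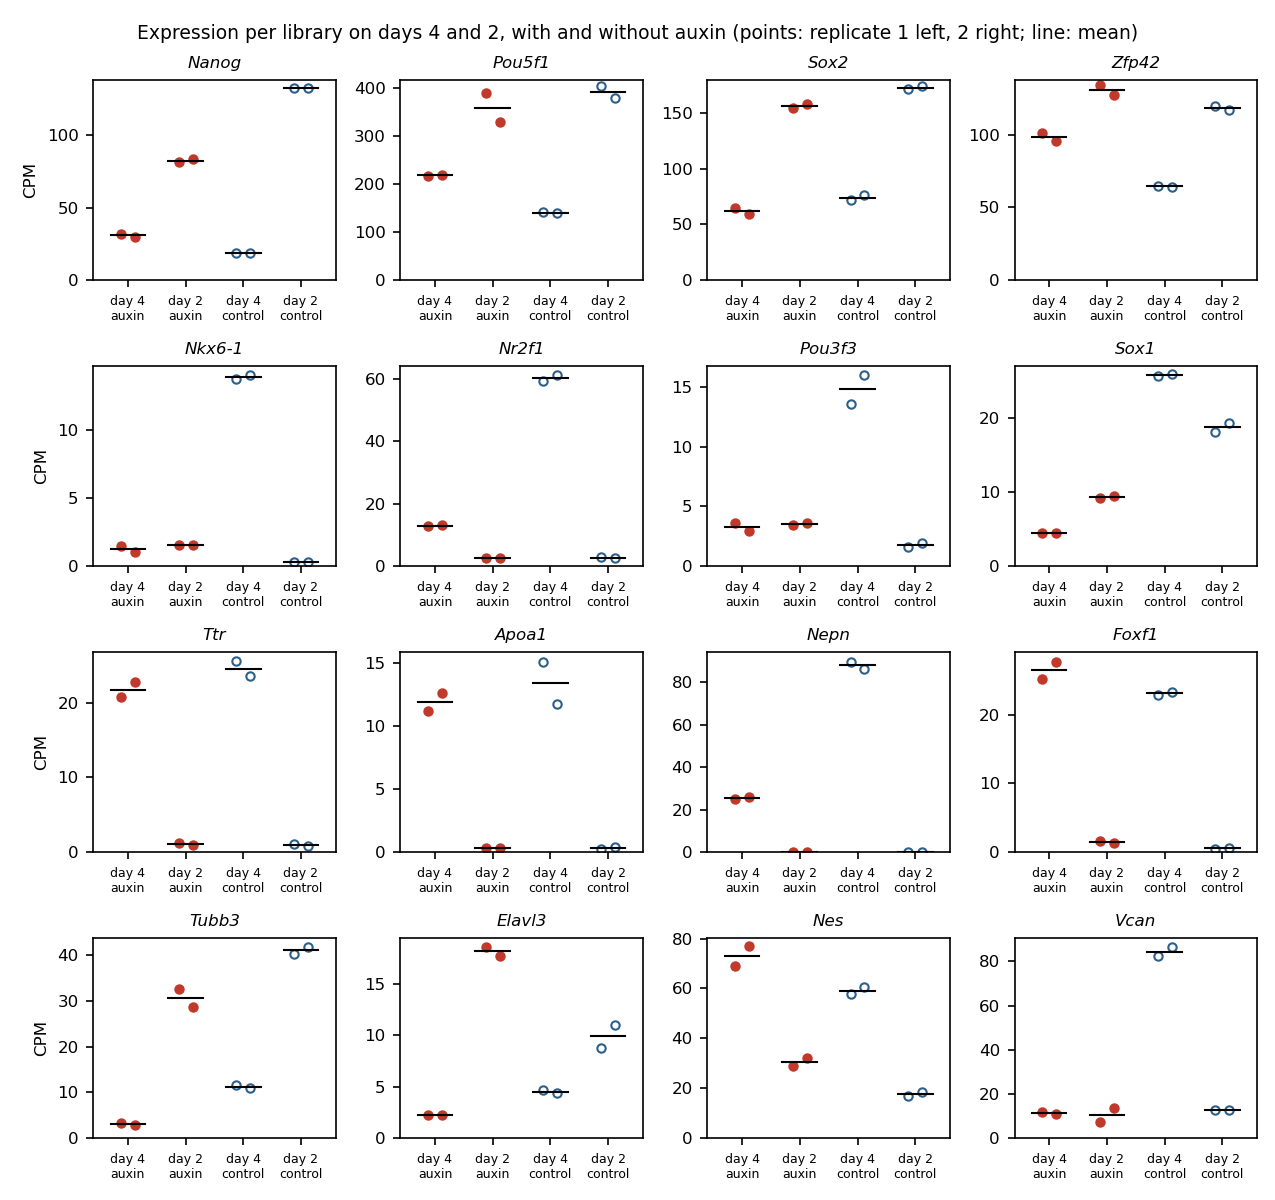
CPM of 16 genes in each library, day 4 auxin, day 2 auxin, day 4 control and day 2 control from left to right. Points are libraries and lines are means of 2. Nanog and Pou5f1 fall less with auxin, Sox2 falls alike, Nkx6-1, Pou3f3 and Vcan show a day 4 level in controls that auxin libraries do not reach, and Ttr, Apoa1 and Foxf1 climb in both conditions.

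Mesoderm and streak genes were mixed: of 26 tested of 28 listed, 7 rose and 9 fell with auxin (median -0.63), against 9 and 8 without auxin (median 0.13). Over all tested genes 24.3% rose and 22.6% fell with auxin, and 24.9% and 24.6% without auxin. Meox1, a homeobox factor of somites, reached 29.3 and 31.2 CPM on day 4 with auxin against 1.01 and 0.743 CPM on day 2 with auxin, and 75.1 and 77.2 against 1.77 and 2.37 CPM without auxin. Its steps were 5.13 ± 0.16 and 5.2 ± 0.14, with no called difference. Foxc2, a forkhead factor of paraxial mesoderm, reached 6.51 and 7.01 CPM with auxin against 0.864 and 0.981 CPM, and 17.1 and 16.6 against 0.409 and 0.421 CPM without auxin (difference -2.46 ± 0.22, adjusted p = 3.6e-04). Cdx2, a caudal factor of the posterior body, fell with auxin to 0.697 and 0.653 CPM against 1.69 and 1.57 CPM, and rose without auxin to 2.21 and 1.85 CPM against 0.852 and 0.992 CPM (difference -2.39 ± 0.3, adjusted p = 0.0023). Its relative Cdx1 fell in both conditions, by 3.52 with auxin and by 4.88 without auxin (difference 1.36 ± 0.22, adjusted p = 0.0084, up to 0.065 with 1 library left out). T, which codes for brachyury, was at 0.55 and 0.364 against 1.35 and 1.95 CPM with auxin. Without auxin T was at 0.334 and 0.318 against 4.24 and 4.25 CPM (difference 1.83 ± 0.39, adjusted p = 0.028). The difference for T lost its call in 6 of the 8 fits that leave out 1 library, and in the fit of all 24 libraries.

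Of 22 retinoic acid pathway genes 11 rose and 3 fell with auxin (median 0.34), against 14 and 3 without auxin (median 0.46). Meis2, a TALE homeobox gene that retinoic acid induces, had 183 and 193 against 42.9 and 44.3 CPM with auxin (2.13 ± 0.07) and 244 and 243 against 68.8 and 67.7 CPM without auxin (1.84 ± 0.07). Crabp1, a cellular retinoic acid binding protein, fell with auxin to 4.29 and 6.25 CPM against 21.7 and 18.7 CPM on day 2. Without auxin it stood at 15.7 and 13.7 against 11 and 11.3 CPM (difference -2.32 ± 0.23, adjusted p = 6.3e-04). Lrat, which esterifies retinol for storage, had 8.51 and 8.77 against 1.73 and 2.18 CPM with auxin and 5.39 and 5.23 against 4.21 and 5.03 CPM without auxin (difference 1.95 ± 0.21, adjusted p = 8.5e-04).

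Hox genes of paralog groups 1 to 5 rose for 5 and fell for 4 of 15 with auxin, against 8 and 5 without auxin. The shares over all tested genes were 24.3% and 22.6% with auxin, and 24.9% and 24.6% without auxin. Of 23 tested genes of paralog groups 6 to 13, 7 rose and 9 fell with auxin (median -0.16), against 11 and 6 without auxin (median 0.41). The step was more positive with auxin for 0, with 1 at an unadjusted p below 0.05 by edgeR. DESeq2 called 0 more positive at an adjusted p below 0.05. It was more negative with auxin for 9 by edgeR, beside 2.59% of all tested genes. The 9 were 10 and 11 without replicate 1 and without replicate 2 of the day 2 auxin group, 4 to 6 without any 1 of the 6 other libraries, and 1 in the fit of all 24 libraries. Hoxc8 reached 20.1 and 19.7 CPM on day 4 with auxin against 1.45 and 1.5 CPM on day 2 with auxin, and 38.1 and 38.8 against 1.11 and 0.616 CPM without auxin (difference -1.74 ± 0.26, adjusted p = 0.0051). Hoxc9 had 14.9 and 14.3 against 3.51 and 2.59 CPM with auxin and 14.6 and 18.3 against 0.75 and 0.796 CPM without auxin (difference -2.13 ± 0.25, adjusted p = 0.0016). The day 2 libraries with auxin lay above those without auxin for Hoxc9, and the day 4 libraries overlapped. Hoxc6 rose by 1.24 ± 0.16 with auxin and 3.29 ± 0.16 without auxin (difference -2.05 ± 0.23, adjusted p = 0.0011). Hoxa11 fell in both, by 2.43 with auxin and by 3.08 without auxin. Hoxb3 and Hoxc5 rose by 1.3 ± 0.18 and 1.23 ± 0.14 with auxin and by 1.35 ± 0.18 and 1.47 ± 0.12 without auxin. Hoxd1 was not called with auxin (-0.16 ± 0.18) and rose by 1.47 ± 0.18 without auxin (difference -1.64 ± 0.26, adjusted p = 0.0069).

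Of the 34 genes in the neural progenitor list 17 had a called difference of the steps, more in number than in any other of the 35 lists, while by share the naive pluripotency list had 10 of 18. The lists differ in size and were chosen with earlier results of these data known, so the ranking is only a description. With auxin 17 of 34 rose and 7 fell (median 0.47), against 25 and 3 without auxin (median 1.58). The difference of the steps was more negative with auxin for 17 and more positive for 0, beside 2.59% and 2.47% of all tested genes. At an unadjusted p below 0.05 by edgeR 2 were more positive, and DESeq2 called 0 at an adjusted p below 0.05. The 17 were 23 without replicate 1 and also without replicate 2 of the day 2 auxin group, 13 or 14 without any 1 of the 6 other libraries, and 7 in the fit of all 24 libraries. Up to 4 were more positive, without replicate 2 of the day 2 auxin group. Nr2f1, an orphan nuclear receptor of the neuroepithelium, reached 12.9 and 13 CPM on day 4 with auxin against 2.52 and 2.61 CPM on day 2 with auxin, and 59.3 and 61.2 against 2.98 and 2.51 CPM without auxin (difference -2.11 ± 0.15, adjusted p = 1.5e-04). Cdh2, N-cadherin, reached 23.3 and 26.9 against 7.58 and 9.02 CPM with auxin and 83.3 and 84.5 against 9.68 and 10.5 CPM without auxin (difference -1.46 ± 0.15, adjusted p = 8.2e-04). Both genes rose with auxin, and by less than without it. Pou3f3, a POU-domain factor of neural precursors, had no called step with auxin, at 3.6 and 2.91 against 3.45 and 3.61 CPM, and rose without auxin to 13.6 and 16 CPM against 1.6 and 1.95 CPM (difference -3.17 ± 0.22, adjusted p = 1.5e-04). Its relative Pou3f2, also called BRN2, had 0.807 and 0.698 against 0.563 and 0.506 CPM with auxin and 8.7 and 9.001 against 0.375 and 0.421 CPM without auxin (difference -3.97 ± 0.29, adjusted p = 1.5e-04). The step of Pou3f2 with auxin was not called (0.5 ± 0.21, adjusted p = 0.073).

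Sox1, the earliest pan-neural SOX factor, fell with auxin to 4.49 and 4.51 CPM against 9.16 and 9.49 CPM on day 2, while it rose without auxin to 25.6 and 25.9 CPM against 18.1 and 19.3 CPM (difference -1.5 ± 0.13, adjusted p = 2.8e-04). The auxin libraries were below the controls on both days. Rfx4, a regulator of cilia and dorsoventral patterning, had 0.587 and 0.698 against 1.03 and 1.27 CPM with auxin and 10.1 and 9.33 against 1.52 and 1.7 CPM without auxin (difference -3.41 ± 0.25, adjusted p = 1.5e-04). Pax6, a paired-box factor of the neural tube and eye, had 15.1 and 13.9 against 12.8 and 11.7 CPM with auxin and 64.7 and 66.1 against 19.96 and 22 CPM without auxin (difference -1.39 ± 0.13, adjusted p = 5.0e-04). Its step with auxin (0.26 ± 0.09, adjusted p = 0.044) lost its call in 7 of the 8 fits that leave out 1 library, with adjusted p up to 0.28, and was -0.016 with the length trend removed. Nes, the intermediate filament nestin, rose with auxin to 68.9 and 77.1 CPM against 28.8 and 32.2 CPM and without auxin to 57.6 and 60.5 CPM against 16.9 and 18.5 CPM. The difference for Nes was not called (-0.47 ± 0.13, adjusted p = 0.075). Vcan, the proteoglycan versican, had 11.8 and 10.9 against 7.28 and 13.7 CPM with auxin and 82.4 and 86.5 against 13 and 13 CPM without auxin (difference -2.58 ± 0.3, adjusted p = 0.0015). The step of Vcan with auxin was not called (0.12 ± 0.22), and it was -0.26 (adjusted p = 0.011) without replicate 1 of the day 2 auxin group.

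Of 36 patterning factors of the neural tube 10 rose and 11 fell with auxin (median -0.03), against 19 and 7 without auxin (median 0.90). Over all tested genes the shares were 24.3% and 22.6% with auxin and 24.9% and 24.6% without auxin, so the counts with auxin are near that background. The 10 were 6 without replicate 2 of the day 4 auxin group. The step was more negative with auxin for 9, beside 2.59% of all tested genes. It was more positive for 0, with 4 at an unadjusted p below 0.05 by edgeR. DESeq2 called 1 more positive at an adjusted p below 0.05. The 9 negative ones were 13 and 19 without replicate 1 and without replicate 2 of the day 2 auxin group, 5 to 8 without any 1 of the 6 other libraries, and 3 in the fit of all 24 libraries. Nkx6-1 (mm10 chromosome 5, 101658139 to 101664996, minus strand) had 1.5 and 1.06 CPM on day 4 with auxin against 1.52 and 1.52 CPM on day 2 with auxin, and 13.7 and 14 against 0.307 and 0.301 CPM without auxin. Its step was not called with auxin (-0.24 ± 0.18, adjusted p = 0.31) and was 5.51 ± 0.2 without auxin (difference -5.75 ± 0.28, adjusted p = 4.3e-05). On day 2 the auxin libraries were above the controls and on day 4 far below them. Olig2, a basic helix-loop-helix factor of motor neuron progenitors, stood at 0.147 and 0.243 against 0.0375 and 0.0949 CPM with auxin and 6.46 and 7.21 against 0.102 and 0.0751 CPM without auxin (difference -4.73 ± 0.78, adjusted p = 0.0091). Olig2 is close to 0 in the auxin libraries, and its step there was lost in 4 of the 8 fits that leave out a library, with adjusted p up to 0.24.

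Hedgehog pathway genes rose for 6 and fell for 6 of 15 with auxin, against 9 and 2 without auxin, and with upper quartile scaling the median step of the list with auxin changed sign, to -0.05 against 0.08. The 6 that fell were 3 without replicate 1 of the day 4 auxin group and 2 in the fit of all 24 libraries. The step was more negative with auxin for 5, a count of 11 and 8 without replicate 1 and without replicate 2 of the day 2 auxin group, 3 without any 1 of the 6 other libraries, and 1 in the fit of all 24 libraries. The ligand gene Ihh had 81.2 and 76.3 against 7.75 and 6.75 CPM with auxin (3.46 ± 0.1) and 48.2 and 49.1 against 3.49 and 3.56 CPM without auxin (3.79 ± 0.1). The co-receptor Gas1 rose by 3 ± 0.09 with auxin and 3.94 ± 0.1 without auxin (difference -0.94 ± 0.12, adjusted p = 0.0026). Boc, another co-receptor, fell with auxin to 7.76 and 8.51 CPM against 12.7 and 13.8 CPM, and rose without auxin to 35.9 and 36.4 CPM against 17 and 18.4 CPM (difference -1.72 ± 0.13, adjusted p = 1.8e-04). Gli1, the transcription factor that the pathway itself induces, had 2.22 and 2.61 against 3.06 and 3.72 CPM with auxin and 24.6 and 25.8 against 13.1 and 13.9 CPM without auxin (difference -1.38 ± 0.18, adjusted p = 0.0024). The fall of Gli1 with auxin (-0.47 ± 0.14) had an adjusted p of up to 0.12 with 1 library left out, and the auxin libraries were below the controls on both days.

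Notch pathway and proneural genes rose for 7 and fell for 8 of 29 with auxin, against 18 and 3 without auxin. The counts with auxin are near the 24.3% and 22.6% of all tested genes, and 11 rose without replicate 2 of the day 2 auxin group. The step was more negative with auxin for 10, beside 2.59% of all tested genes, and more positive for 1. The 10 were 19 and 18 without replicate 1 and without replicate 2 of that group, 7 or 8 without any 1 of the 6 other libraries, and 3 in the fit of all 24 libraries. Neurog2, a neurogenin, stood at 0.11 and 0.243 against 0.0375 and 0.253 CPM with auxin, and had 6.97 and 6.97 against 0.102 and 0.18 CPM without auxin (difference -5.33 ± 0.88, adjusted p = 0.0088, and 0.08 without replicate 2 of the day 2 auxin group). Neurog1 had 0.11 and 0.137 against 0.188 and 0.127 CPM with auxin and 2.56 and 2.06 against 0.136 and 0.21 CPM without auxin (difference -4.01 ± 0.6, adjusted p = 0.0055). Insm1, a zinc-finger factor of newborn neurons, fell with auxin to 0.624 and 0.546 CPM against 1.84 and 2.15 CPM and rose without auxin to 3.75 and 4.39 CPM against 0.818 and 1.44 CPM (difference -3.6 ± 0.37, adjusted p = 7.7e-04). Hes5, a Notch target that keeps progenitors undifferentiated, was at 0.0183 and 0.0455 against 0.225 and 0.0475 CPM with auxin and 1.79 and 1.24 against 0.0341 and 0.0751 CPM without auxin. Its difference of -6.62 ± 1.12 (adjusted p = 0.0097, up to 0.061 with 1 library left out) is set by levels near 0 and is a loose size.

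**Figure D4:**
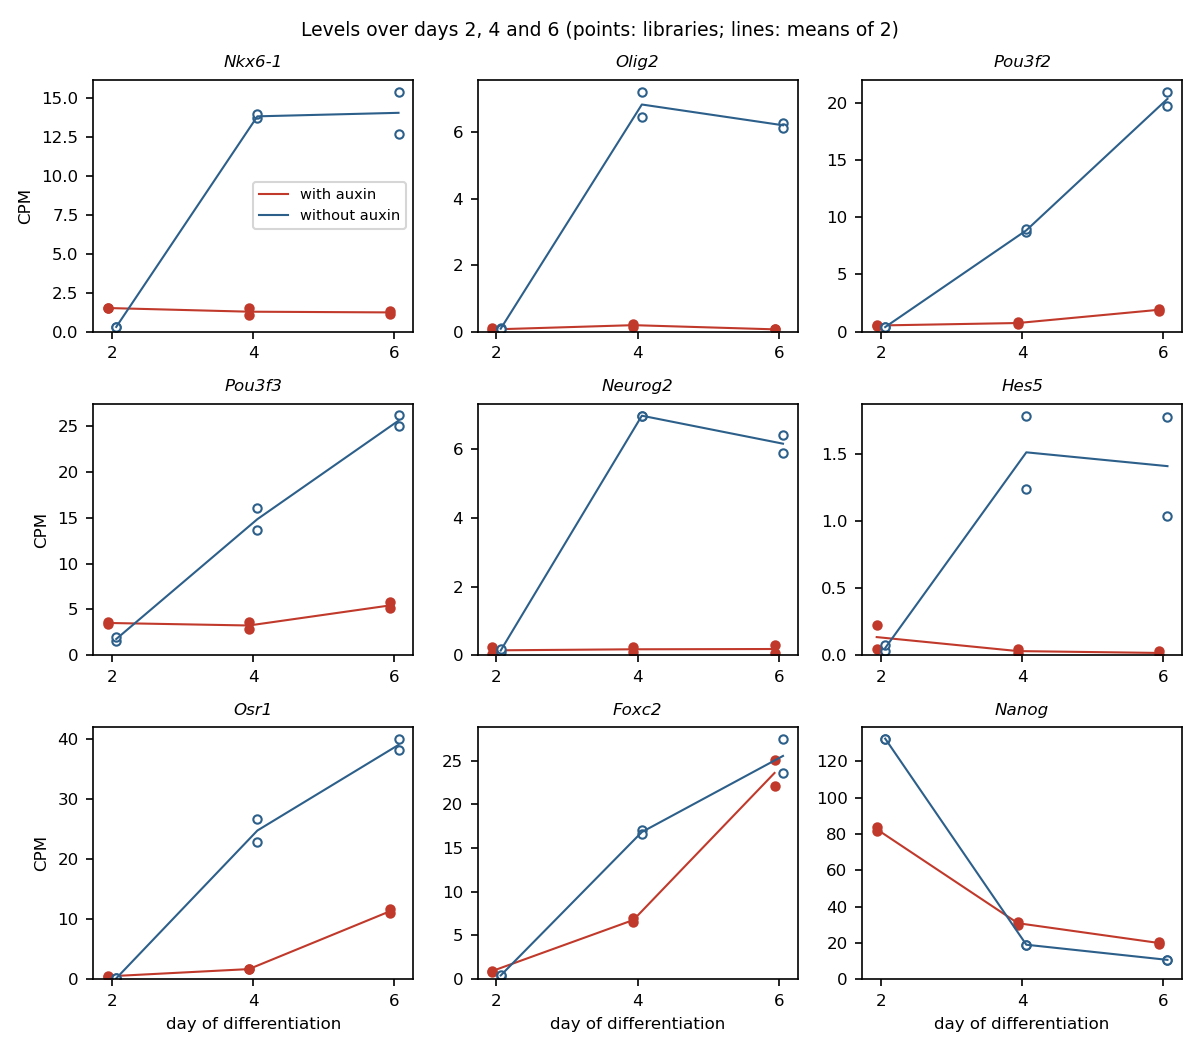
CPM on days 2, 4 and 6 with auxin (red, filled) and without auxin (blue, open) for 9 genes, with points for libraries and lines through means of 2. Nkx6-1, Olig2, Neurog2 and Hes5 stay far below the day 6 controls with auxin, Foxc2 reaches the control range by day 6, and Nanog falls in both.

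The values of day 6 show which of these genes moved later. With auxin, Nkx6-1 had 1.52 and 1.52 CPM on day 2, 1.5 and 1.06 on day 4 and 1.32 and 1.15 on day 6, while without auxin it had 0.307 and 0.301 CPM on day 2, 13.7 and 14 on day 4 and 12.7 and 15.4 on day 6. Osr1 had 0.338 and 0.569 CPM on day 2, 1.63 and 1.7 on day 4 and 11.7 and 11 on day 6 with auxin. Without auxin it had 0.102 and 0.15 CPM on day 2, 26.8 and 22.8 on day 4 and 38.2 and 39.99 on day 6. It was thus low on day 4 with auxin and higher, though still under the control libraries, on day 6. Foxc2 had 0.864 and 0.981 CPM on day 2, 6.51 and 7.01 on day 4 and 25.1 and 22 on day 6 with auxin, beside 23.6 and 27.4 CPM on day 6 without auxin, and the day 6 libraries overlapped. Vcan had 51 and 56.2 CPM on day 6 with auxin, beside 225 and 218 CPM without auxin. Day 6 values are descriptions here, with no test.

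Factors of motor neurons and interneurons showed 8 higher and 11 lower of 35 tested with auxin (median -0.79), against 14 and 3 without auxin (median 0.36). The counts with auxin are near the 24.3% and 22.6% of all tested genes, and 5 were higher without replicate 1 of the day 4 auxin group. The list held 11 more negative steps with auxin, beside 2.59% of all tested genes, and 0 more positive. At an unadjusted p below 0.05 by edgeR 0 were more positive, and DESeq2 called 0 at an adjusted p below 0.05. The 11 were 14 without replicate 1 and also without replicate 2 of the day 2 auxin group, 4 to 8 without any 1 of the 6 other libraries, and 2 in the fit of all 24 libraries. Gata3, a zinc-finger factor of some interneurons and of many other tissues, rose in both, by 3.31 ± 0.11 with auxin and 4.45 ± 0.11 without auxin (difference -1.14 ± 0.16, adjusted p = 0.0034). Lhx3, a LIM homeobox factor of motor neurons, fell with auxin to 0.147 and 0.273 CPM against 0.713 and 0.664 CPM and rose without auxin to 1.2 and 1.38 CPM against 0.341 and 0.27 CPM (difference -3.75 ± 0.49, adjusted p = 0.0026).

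Of 37 tested genes of neuronal structure and transmission 16 fell and 8 rose with auxin (median -0.48), against 14 and 14 without auxin (median 0.15). The 8 that rose were 5 and 3 without replicate 1 and without replicate 2 of the day 4 auxin group, and 3 in the fit of all 24 libraries. The step was more negative with auxin for 12 and more positive for 1. The 12 were 14 and 18 without replicate 1 and without replicate 2 of the day 2 auxin group, 6 or 7 without any 1 of the 6 other libraries, and 2 in the fit of all 24 libraries. Tubb3, the neuronal tubulin, fell with auxin to 3.36 and 2.85 CPM against 32.5 and 28.7 CPM, and without auxin to 11.6 and 10.9 CPM against 40.3 and 41.7 CPM (difference -1.43 ± 0.15, adjusted p = 8.5e-04). Elavl3, an RNA-binding protein of neurons, had 2.24 and 2.25 against 18.6 and 17.7 CPM with auxin and 4.67 and 4.39 against 8.81 and 11 CPM without auxin (difference -1.87 ± 0.18, adjusted p = 6.4e-04). Stmn2, a microtubule regulator, fell by 3.47 with auxin and by 3.84 without auxin, with no called difference. All 3 were thus already expressed on day 2 and fell by day 4 in both conditions. Dcx, a microtubule protein of migrating neurons, stood at 0.257 and 0.334 against 0.0751 and 0.127 CPM with auxin and 2.98 and 2.94 against 0.136 and 0.0751 CPM without auxin (difference -3.27 ± 0.63, adjusted p = 0.017), and both its difference and its step with auxin lost the call in some fits with 1 library left out, with adjusted p up to 0.071 and 0.099. Miat, a long noncoding RNA of the nervous system, fell with auxin to 0.495 and 0.592 CPM against 2.1 and 2.63 CPM and rose without auxin to 4.73 and 5.83 CPM against 1.76 and 2.4 CPM (difference -3.44 ± 0.32, adjusted p = 4.8e-04).

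Most endoderm genes rose with auxin and without it. Of 34 listed, 25 rose and 4 fell with auxin (median 1.66), against 26 and 4 without auxin (median 1.63), beside 24.3% and 22.6% of all genes. Their summed level was 21400 and 20260 CPM on day 4 with auxin against 4409 and 5321 CPM on day 2 with auxin, and 19530 and 19710 against 4198 and 4143 CPM without auxin. The basement membrane genes Col4a1, Col4a2, Lama1 and Lamb1 gave most CPM to that sum on day 4 with auxin. Ttr, transthyretin, reached 20.8 and 22.7 CPM with auxin against 1.2 and 0.981 CPM (4.34 ± 0.16) and 25.5 and 23.6 against 1.09 and 0.781 CPM without auxin (4.72 ± 0.16). Apoa1, an apolipoprotein, rose by 5.23 ± 0.22 with auxin and 5.26 ± 0.22 without auxin, to 11.2 and 12.6 CPM with auxin and 15.1 and 11.8 CPM without auxin. The libraries of day 4 overlapped between conditions for Apoa1. Afp, alpha-fetoprotein, rose by 3.55 ± 0.14 with auxin and 5.2 ± 0.15 without auxin (difference -1.65 ± 0.22, adjusted p = 0.003). Cxcr4, a chemokine receptor found on definitive endoderm and on many other cells, fell by 2.49 with auxin and by 1.13 without auxin (difference -1.36 ± 0.18, adjusted p = 0.0024). The difference of the steps was more negative for 6 and more positive for 1 of the 34, and more negative for 15 and 16 without replicate 1 and without replicate 2 of the day 2 auxin group, for 3 or 4 without any 1 of the 6 other libraries, and for 0 in the fit of all 24 libraries.

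Mesenchyme and fibroblast genes rose for 18 and fell for 6 of 32 tested with auxin (median 0.89), against 21 and 6 without auxin (median 1.33). Their summed level was 1541 and 1575 CPM on day 4 with auxin against 1484 and 1927 CPM on day 2 with auxin, so those groups overlapped, and it was 1814 and 1893 against 1483 and 1521 CPM without auxin. The part of fibroblast feeder cells in these values was not tested. Foxf1, a forkhead factor of lateral mesoderm, reached 25.2 and 27.7 CPM with auxin against 1.65 and 1.41 CPM and 22.9 and 23.3 against 0.494 and 0.601 CPM without auxin (difference -1.26 ± 0.2, adjusted p = 0.0081, and 0.066 without replicate 1 of the day 2 control group). Igf2, an imprinted growth factor, rose by 2.55 ± 0.08 with auxin and 3.68 ± 0.08 without auxin (difference -1.13 ± 0.1, adjusted p = 4.1e-04). Osr1, a zinc-finger factor of intermediate mesoderm (mm10 chromosome 12, 9570116 to 9581500, plus strand), reached 1.63 and 1.7 CPM with auxin against 0.338 and 0.569 CPM and 26.8 and 22.8 against 0.102 and 0.15 CPM without auxin (difference -5.72 ± 0.4, adjusted p = 1.5e-04). It rose in both conditions and by far less with auxin. Muscle genes rose for 11 and fell for 8 of 24 tested with auxin, against 11 and 4 without auxin, and 5 fell with auxin when any 1 library of the day 4 auxin or day 2 control groups was left out. Acta1, skeletal actin, reached 23.5 and 29 against 1.09 and 1.42 CPM with auxin (4.39 ± 0.17) and 15.3 and 15.1 against 0.443 and 0.586 CPM without auxin (4.87 ± 0.19), with no called difference. In the neural crest list 7 of 25 rose and 9 fell with auxin, against 14 and 5 without auxin. Over all tested genes 24.3% rose and 22.6% fell with auxin, the background for every list of this paragraph. Ednrb, the endothelin receptor of crest cells, rose by 2.44 ± 0.19 with auxin and 4.21 ± 0.18 without auxin (difference -1.77 ± 0.27, adjusted p = 0.0061). Markers of blood and endothelium rose for 7 (4 without replicate 2 of the day 4 auxin group) and fell for 8 of 21 tested with auxin, and Tie1, an endothelial receptor, fell by 3.22 with auxin and by 2.60 without auxin.

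In the BMP, nodal and TGF-beta list 16 of 35 rose and 10 fell with auxin (median 0.47), against 20 and 10 without auxin (median 0.79). Nodal, a TGF-beta family ligand of the epiblast and streak, had 4.37 and 4.8 against 51.6 and 48 CPM with auxin and 4.42 and 3.77 against 79.9 and 77.6 CPM without auxin (difference 0.84 ± 0.14, adjusted p = 0.01, up to 0.091 with 1 library left out). Id2, a BMP target, rose by 3.91 ± 0.11 with auxin and 4.29 ± 0.11 without auxin, with no called difference. Id3 reached 83.7 and 92.6 CPM with auxin against 5.59 and 4.37 CPM and 158 and 149 against 2.52 and 2.46 CPM without auxin (difference -1.78 ± 0.17, adjusted p = 5.6e-04). FGF pathway genes fell for 14 and rose for 6 of 25 with auxin (median -0.65), against 10 and 7 without auxin (median -0.22). Spry4, a feedback inhibitor of FGF signalling, fell by 3.26 with auxin and by 3.76 without auxin, and Fgf10, a ligand of limb and lung mesenchyme, rose by 2.83 ± 0.13 and 2.86 ± 0.13. Wnt pathway genes rose for 13 and fell for 10 of 35 with auxin, against 18 and 10 without auxin, and 5 fell with auxin without replicate 1 of the day 4 auxin group.

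**Figure D5:**
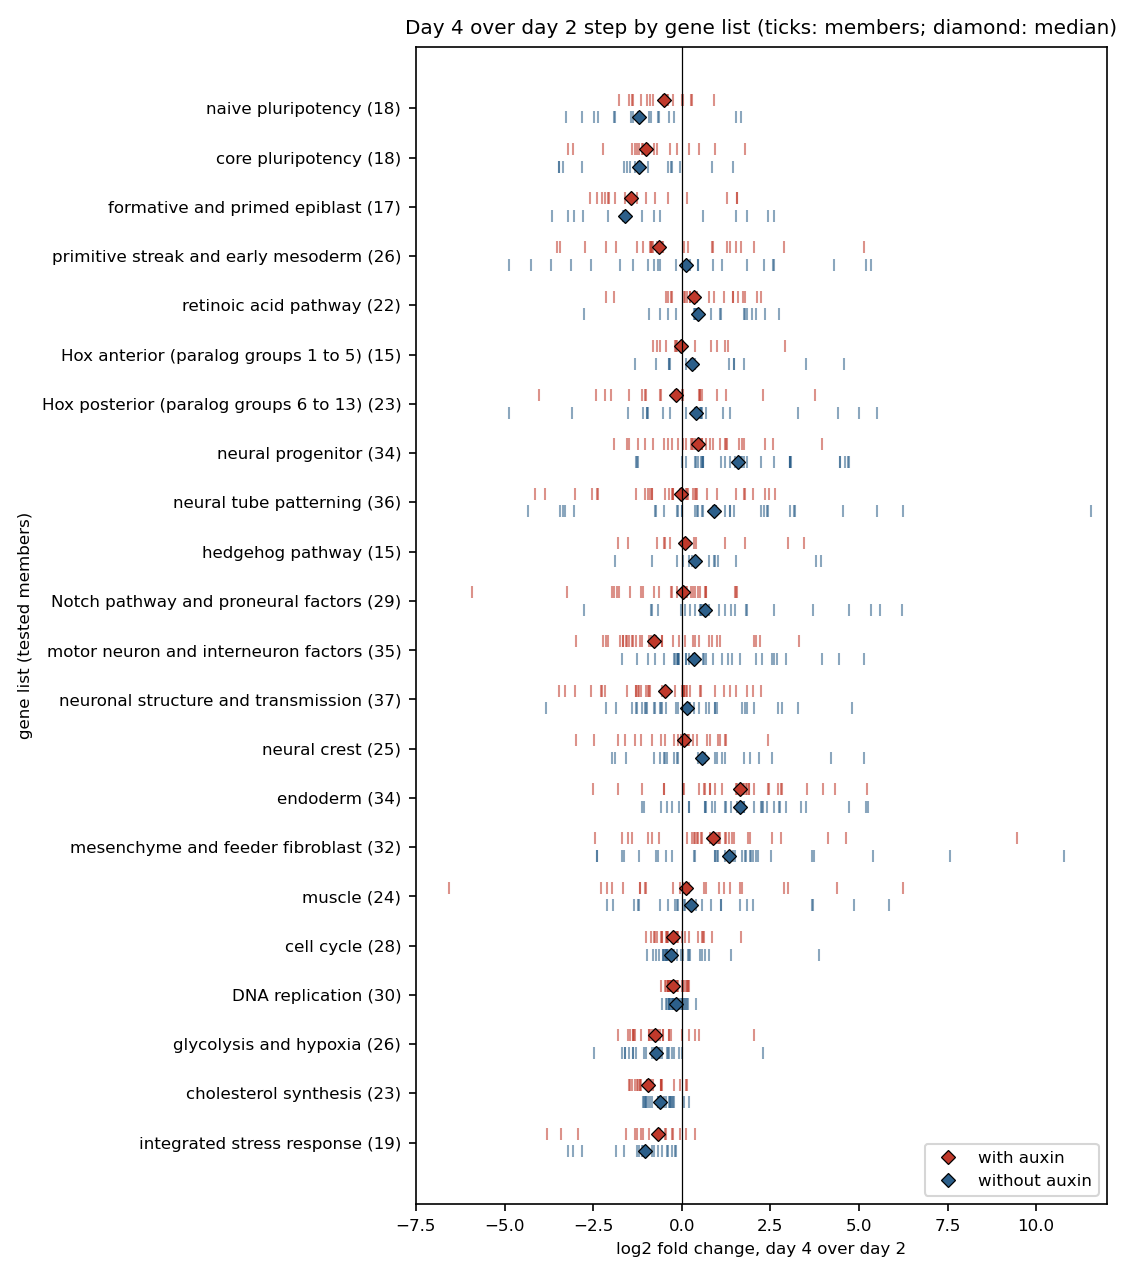
Log2 fold change of day 4 over day 2 for the tested members of 22 gene lists, with auxin (red, above) and without auxin (blue, below). Ticks are genes and diamonds are medians. The medians of the endoderm list lie together at 1.66 and 1.63, while those of the neural progenitor list lie apart at 0.47 and 1.58.

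Of 26 glycolysis and hypoxia genes 21 fell and 3 rose with auxin (median -0.75), against 22 and 1 without auxin (median -0.72), though 7 fell with auxin in the fit of all 24 libraries. Bnip3, a mitophagy receptor induced by hypoxia, fell by 1.47 with auxin and by 1.70 without auxin, and Pfkp, the platelet phosphofructokinase, fell by 1.52 and by 2.47 (difference 0.95 ± 0.11, adjusted p = 0.0014). Ndrg1, a stress response gene, rose with auxin to 57 and 56.7 CPM against 13.9 and 14.2 CPM, and by a like size without auxin. Of 23 cholesterol synthesis genes 19 fell with auxin (median -0.96), against 19 without auxin (median -0.62). The difference of the steps was more negative with auxin for 2 and more positive for 0 by edgeR, and DESeq2 called 7 and 0. At an unadjusted p below 0.05 by edgeR, 13 were more negative and 1 more positive. Dhcr7, the last enzyme of the pathway, had 38 and 42.2 against 109 and 105 CPM with auxin and 66.7 and 64.3 against 135 and 134 CPM without auxin. Integrated stress response genes fell for 15 of 19 with auxin and for 17 without auxin. Chac1, a glutathione-degrading enzyme that ATF4 induces, had 2.11 and 2.43 against 26.1 and 23.1 CPM with auxin and 8.53 and 9.17 against 85.5 and 80.04 CPM without auxin. Its auxin libraries were below the controls on both days, with no called difference of the steps.

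Cell cycle genes fell for 15 and rose for 5 of 28 with auxin, against 15 and 6 without auxin, and 7 fell with auxin in the fit of all 24 libraries. Ccnd2, cyclin D2, reached 117 and 119 CPM on day 4 with auxin against 31.7 and 43.9 CPM on day 2 with auxin, and 308 and 299 against 20.9 and 20.9 CPM without auxin (difference -2.21 ± 0.18, adjusted p = 2.5e-04). Of 30 DNA replication genes 17 fell with auxin and 14 without auxin, and the difference was called for 0 by edgeR. These counts depended on single libraries. The difference was more negative for 12 and more positive for 1 without replicate 2 of the day 2 auxin group, and for 2 and 3 without its replicate 1. The 14 that fell without auxin were 2 to 19, lowest without replicate 2 of the day 4 control group, and the 17 were 8 to 21, lowest without replicate 1 of the day 4 auxin group. With auxin 0 rose, though 6 rose without replicate 1 and 3 without replicate 2 of the day 2 auxin group, and 8 fell in a fit of the 4 auxin libraries alone. For the difference, 3 of the 30 had an unadjusted p below 0.05, and DESeq2 called 0. For a rise with auxin, 2 had such a p and DESeq2 called 0. Mcm2, a subunit of the replicative helicase, fell by 0.40 with auxin and by 0.42 without auxin. Among CTCF and cohesin genes 9 of 22 rose and 3 fell with auxin, against 4 and 8 without auxin, and the counts with auxin moved to 5 and 6 with upper quartile scaling. They were 5 and 1 without replicate 1 of the day 4 auxin group, and 11 and 7 without replicate 1 of the day 2 auxin group. The counts without auxin ranged over 2 to 8 and 4 to 9 with 1 library left out. Smc1b, a meiotic cohesin subunit, rose with auxin to 39.4 and 37.6 CPM against 15.4 and 14.4 CPM, and stood at 19.8 and 19.5 against 19.2 and 19.98 CPM without auxin (difference 1.37 ± 0.12, adjusted p = 2.8e-04). Stag3, another meiotic cohesin subunit, rose with auxin to 84.8 and 87.8 CPM against 47.1 and 51.5 CPM and fell without auxin to 44.6 and 45.9 CPM against 55.5 and 55.1 CPM (difference 1.11 ± 0.11, adjusted p = 6.3e-04). Imprinted genes rose for 19 and fell for 4 of 34 with auxin, against 23 and 4 without auxin. Dlk1, a paternally expressed Notch-like ligand, reached 405 and 428 CPM with auxin against 13.9 and 11.9 CPM, and 412 and 403 against 13.1 and 13.8 CPM without auxin, with no called difference (0.1 ± 0.12). H19, a maternally expressed noncoding RNA next to Igf2 whose imprint depends on CTCF sites, reached 21.6 and 21.3 CPM with auxin against 8.15 and 6.88 CPM, and 143 and 148 against 16 and 15.3 CPM without auxin (difference -1.69 ± 0.13, adjusted p = 1.8e-04).

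Of the 8 genes with the most positive called difference of the steps among those whose log2 CPM averaged 1 or more, predicted genes and clone names left out, Atp4a, Cth, Fbln5, Pklr and Fam26e rose with auxin and fell without it. Atp4a, the gastric proton pump, had 9.08 and 8.68 CPM on day 4 with auxin against 4.17 and 5.14 CPM on day 2 with auxin, and 0.953 and 0.94 against 5.83 and 5.71 CPM without auxin (difference 3.54 ± 0.2, adjusted p = 1.0e-04). Cth, which makes cysteine from cystathionine, had 40.4 and 41.1 against 28.7 and 29.7 CPM with auxin and 16.5 and 16.1 against 39.8 and 38.7 CPM without auxin (difference 1.76 ± 0.11, adjusted p = 1.0e-04). Fbln5, a matrix protein of elastic fibres, had 6.27 and 6.68 against 2.91 and 2.86 CPM with auxin and 1.97 and 2.76 against 4.98 and 4.64 CPM without auxin (difference 2.19 ± 0.23, adjusted p = 8.2e-04). In these 3 genes the day 2 libraries of the conditions lay closer than the day 4 libraries. Tfec, a MiT family factor, was not called with auxin (-0.28 ± 0.14) and fell by 2.63 without auxin (difference 2.35 ± 0.22, adjusted p = 5.0e-04). Emx1, a homeobox factor of the forebrain, had 9.15 and 7.998 against 3.27 and 2.37 CPM with auxin and 0.1 and 0.121 against 0.239 and 0.24 CPM without auxin, where it was close to 0 (difference 2.71 ± 0.45, adjusted p = 0.0093, up to 0.066 with 1 library left out). Pklr, the liver pyruvate kinase, and Fam26e had differences of 2.82 ± 0.33 and 1.8 ± 0.25, and the step of Pklr with auxin had an adjusted p of up to 0.06 with 1 library left out. Among the 8 most negative ones at the same minimum level, Fam162b had a difference of -2.91 ± 0.58 (adjusted p = 0.02). That difference lost its call in 5 of the 8 fits that leave out 1 library, and in the fit of all 24 libraries.

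Cyp1a1 and Cyp1b1, xenobiotic-metabolizing enzymes that the aryl hydrocarbon receptor induces, had differences of the steps of opposite sign. Cyp1a1 stood at 17 and 18.1 CPM on day 4 with auxin against 15.4 and 14.1 CPM on day 2 with auxin, and at 1.1 and 1.12 against 2.42 and 2.34 CPM without auxin (difference 1.36 ± 0.17, adjusted p = 0.0019). Its step with auxin (0.27 ± 0.1) had an adjusted p of up to 0.25 with 1 library left out. Cyp1b1 reached 15.2 and 17 CPM with auxin against 4.69 and 5.24 CPM, and 60.1 and 60.7 against 4.28 and 4.42 CPM without auxin (difference -2.09 ± 0.14, adjusted p = 1.4e-04). Of the 11 genes of this list 6 rose and 2 fell with auxin, and 6 rose and 3 fell without auxin.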

How the data were processed

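RNA sequencing reads of 24 libraries, 12 groups of 2, had been counted per gene by the authors. The deposited values are raw counts, and the submitters' processing notes name HTSeq, STAR, edgeR and mm10. The sources used here give no versions, annotation or strand setting. Overlapping and antisense genes therefore cannot be told apart with certainty. Between 69.2% and 72.2% of the counts from 1 to 20 in the 8 libraries of days 2 and 4 are even, and halving all counts was one of the alternatives. The table holds 51697 genes, and 1 line that names no gene was dropped.

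Groups were taken from the labels. Counts of 8 libraries were filtered with filterByExpr (minimum count 10, minimum total 15), scaled by TMM and fitted with 1 mean per group in edgeR 4.0.16 (R 4.3.3). Quasi-likelihood tests gave the step with auxin, the step without auxin and their difference, with Benjamini-Hochberg adjustment over 21126 genes. Alternatives used DESeq2 1.42.0 and limma 3.58.1. On simulated counts with 100 genes changed 2-fold and 100 changed 4-fold among 20591, 80% and 95% were called in the step with auxin, and 63% and 94% in the difference. The simulation gave all groups the same spread and no length trend, unlike the day 2 auxin libraries. These shares therefore do not give the power reached in these data. Members and the 35 gene lists were chosen with earlier results of these data known, and the lists describe and support nothing else. Of their entries 99.8% are in the table. Named genes are up to 8 with the largest change each way at a mean log2 CPM of at least 1, up to 4 (step with auxin) and 3 (difference) per list, and a set of standard markers, from which the text names some. A few genes are not reported here. The labels do not say whether replicate numbers pair the libraries, and the fit used here did not pair them. Deviations from group means of same-numbered libraries correlated at -0.177 to 0.274 over 11712 genes. These values cannot settle the pairing, since the day 2 auxin replicate ratio followed gene length. Exonic lengths and coordinates come from GENCODE vM21 and were matched for 95.7% of tested genes.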

Additional observations from a re-analysis of the deposited data

Results flagged for a closer look

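Each result here is a difference of the steps, that is, the log2 fold change of day 4 over day 2 with auxin minus the same without auxin, which passed edgeR's test of the difference itself at a Benjamini-Hochberg adjusted p below 0.05. It did so for 1070 genes, 5.06% of those tested.

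Among neural factors the difference was -6.62 for Hes5, -5.75 for Nkx6-1, -5.33 for Neurog2, -4.73 for Olig2, -4.01 for Neurog1 and -3.97 for Pou3f2. It was -3.75 for Lhx3, -3.6 for Insm1, -3.41 for Rfx4, -3.17 for Pou3f3, -2.11 for Nr2f1, -1.5 for Sox1, -1.39 for Pax6, -1.14 for Gata3 and -1.04 for Sox11. Neuronal and adhesion genes had -3.44 (Miat), -3.27 (Dcx), -2.58 (Vcan), -1.87 (Elavl3), -1.46 (Cdh2) and -1.43 (Tubb3). Hox and caudal genes had -2.39 (Cdx2), -2.13 (Hoxc9), -2.05 (Hoxc6), -1.74 (Hoxc8), -1.64 (Hoxd1) and 1.36 (Cdx1). Genes of mesoderm, mesenchyme, crest and endoderm had -5.72 (Osr1), -2.46 (Foxc2), -1.77 (Ednrb), -1.65 (Afp), -1.36 (Cxcr4), -1.26 (Foxf1), -1.13 (Igf2) and 1.83 (T).

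Signalling, metabolic and other genes had -4.42 (Fgf15), -2.91 (Fam162b), -2.32 (Crabp1), -2.21 (Ccnd2), -2.09 (Cyp1b1), -1.78 (Id3), -1.72 (Boc), -1.69 (H19), -1.49 (Nccrp1), -1.38 (Gli1) and -0.94 (Gas1). Pluripotency and epiblast genes had 0.47 (Zfp42), 0.76 (Pou5f1), 0.84 (Nodal), 1.14 (Utf1), 1.39 (Nanog), 1.46 (Esrrb) and 1.5 (Fgf4). The remaining positive differences were 0.95 (Pfkp), 1.11 (Stag3), 1.36 (Cyp1a1), 1.37 (Smc1b), 1.76 (Cth), 1.8 (Fam26e), 1.95 (Lrat), 2.19 (Fbln5), 2.35 (Tfec), 2.71 (Emx1), 2.82 (Pklr) and 3.54 (Atp4a). Of the 65 genes listed in this section, 41 lost the call in the fit of all 24 libraries, among them H19, Smc1b, Sox11 and Tubb3. Of these 65 genes, 13 lost the call in at least 1 fit with a library left out, and they are Cdx1, Dcx, Emx1, Fam162b, Foxf1, Hes5, Nccrp1, Neurog2, Nodal, Pou5f1, T, Utf1 and Zfp42. Their highest adjusted p in those fits was 0.21.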

How the results depend on the processing

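No gene called in the step with auxin, the step without auxin or their difference was called in the opposite direction in any alternative. The step with auxin counted 9905 genes, and 5000 in a fit of all 24 libraries, 3946 with a fold of at least 2, and 7203 to 12566 with 1 library left out. The step without auxin counted 10457, and 5746, 4553 and 7538 to 13505 in the same settings. The difference counted 1070, and 2237 with all 16 differentiation libraries, 73 with all 24, 1903 with no filter on low counts, 366 at an adjusted p below 0.01, 463 with a fold of at least 2, 1936 with the length trend removed (chosen after seeing the data) and 314 to 6802 with 1 library left out. The top of that range came without replicate 2 of the day 2 auxin group, and 4234 without its replicate 1. In those fits the lone day 2 auxin library is assumed to vary like the other groups, and the cause of the gap between its replicates was not tested. With the replicate number as a block the counts were 9788, 10339 and 905, and with the pairing of the day 2 auxin libraries crossed (chosen after seeing the data) 9585, 10084 and 857. DESeq2 gave 9539, 9959 and 1386. Signs were compared for the 107 genes named, only for values called in the fit used here or in the alternative. Among these the sign turned for Pax6 (step with auxin -0.0158 with the length trend removed) and Vcan (-0.26 without replicate 1 and 0.64 without replicate 2 of the day 2 auxin group). Sign changes of values called in neither fit were not counted. Of the 97 calls of the named genes in the step with auxin 83 were kept in the fit of all 24 libraries. Of 65 called differences 24 were kept in that fit. The steps also depend on depth at genes below about 1 CPM, where a few counts set the fold.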

Other observations

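Of 27 tested genes of germline and 2-cell-like cells, 8 rose and 8 fell with auxin, against 4 and 10 without auxin. Over all tested genes the shares were 24.3% and 22.6% with auxin, and 24.9% and 24.6% without auxin, and the counts of germline and 2-cell-like genes with auxin are near them. The 8 that rose were 5 without replicate 1, and the 8 that fell were 3 without replicate 2, of the day 4 auxin group. In this list 6 had a more positive step with auxin, beside 2.47% of all tested genes, a count of 12 and 11 without replicate 1 and without replicate 2 of the day 2 auxin group, 0 to 2 without any 1 of the 6 other libraries, and 0 in the fit of all 24 libraries. Targets of p53 rose for 6 and fell for 10 of 22 with auxin, against 3 and 14 without auxin. In the cadherin list, whose members hold cells to each other, 14 of 27 rose and 2 fell with auxin, against 12 and 4 without auxin, and 9 rose without replicate 2 of the day 4 auxin group. Genes of glia rose for 9 and fell for 6 of 18 tested with auxin, against 7 and 6 without auxin. DNA methylation genes rose for 4 and fell for 4 of 12 with auxin, against 3 and 4 without auxin, and 7 fell without replicate 1 of the day 2 auxin group. Of 11 tested trophoblast genes 4 rose and 4 fell with auxin, against 6 and 3 without auxin.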
